A study of Mus musculus with 14 samples.

Results

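The genes of glucose use are described here: the 38 genes for glucose and lactate transport, glycolysis, lactate and pyruvate handling and glycogen turnover, chosen by gene symbol from the 49315 rows of the count table. All 38 were found, and 37 of them had enough reads to be tested, among 15292 tested genes. Aldoc, which encodes the brain form of aldolase, was the 1 gene below the filter on low counts.

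Left ventricular RNA of male mice was sequenced after polyA selection, 5 weeks after surgery performed at 10 to 12 weeks of age. WT mice and HCN4F mice, which carry the Hcn4 Y527F knock-in allele, a gain-of-function change in the pacemaker channel HCN4, underwent either transverse aortic constriction (TAC), which narrows the aorta and loads the ventricle with pressure, or Sham surgery. The libraries used were 4 WT-Sham, 4 HCN4F-Sham, 2 WT-TAC (numbered 2 and 3) and 4 HCN4F-TAC, so comparisons with WT-TAC rest on fewer libraries. The study describes 4 biological replicates per group, and p-values measure the spread between these libraries. The knock-in is a base change, which the counts of Hcn4 itself do not show.

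Glucose enters heart muscle cells through transporters of the SLC2A family, is phosphorylated by hexokinase, and is split by glycolysis into pyruvate, which either becomes lactate or enters mitochondria for oxidation by the pyruvate dehydrogenase complex. Many steps have several isoforms, with one form typical of adult striated muscle and others typical of fetal heart, brain, liver or proliferating cells. The adult heart draws most of its energy from fatty acids, and a shift towards glucose use and towards fetal isoforms is a well-known feature of pressure-loaded hearts.

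Of the 37 tested genes, 10 passed the test in at least 1 of the 4 comparisons between groups, as 15.9% of all tested genes did. Pfkp, a phosphofructokinase isoform, Pgam1, the non-muscle phosphoglycerate mutase, Slc2a1, the GLUT1 transporter, and Gyg, glycogenin, rose in HCN4F-TAC against HCN4F-Sham hearts. Pfkfb1, an enzyme that sets fructose 2,6-bisphosphate, Eno3, the muscle enolase, Ldhb, the heart form of lactate dehydrogenase, Mpc2, a subunit of the mitochondrial pyruvate carrier, and Pdk2, a pyruvate dehydrogenase kinase, fell. Eno3 and Ldhb also fell in WT-TAC against WT-Sham hearts, and Pkm, pyruvate kinase, was lower in Sham hearts of HCN4F mice than in those of WT mice.

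The stretches before transcription starts are shown for Pfkp and Pgam1, which rose, and for Eno3 and Ldhb, which fell in both genotypes. A stretch is also shown for Ldha, which did not pass the test, from the window with the most ACGTG matches of the 55 searched. Each is the 250 bases before a start site in RefSeq (GRCm38.p6), written 5′ to 3′ on the strand of the gene, with capitals marking the letters ACGTG, the core bound by HIF-1, and GCGTG, a related core, on either strand (CACGT and CACGC when read on the other strand). The windows are chr13:6648772-6649021, minus strand for Pfkp, chr19:41911621-41911870, plus strand for Pgam1, chr11:70656926-70657175, plus strand for Eno3, chr6:142507958-142508207, minus strand for Ldhb and chr7:46845554-46845803, plus strand for Ldha.
Pfkp: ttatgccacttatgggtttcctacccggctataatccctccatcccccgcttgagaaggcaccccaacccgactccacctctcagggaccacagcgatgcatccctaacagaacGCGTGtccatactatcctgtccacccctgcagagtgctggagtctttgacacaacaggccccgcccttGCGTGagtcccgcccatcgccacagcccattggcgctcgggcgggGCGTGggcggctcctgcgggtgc
Pgam1: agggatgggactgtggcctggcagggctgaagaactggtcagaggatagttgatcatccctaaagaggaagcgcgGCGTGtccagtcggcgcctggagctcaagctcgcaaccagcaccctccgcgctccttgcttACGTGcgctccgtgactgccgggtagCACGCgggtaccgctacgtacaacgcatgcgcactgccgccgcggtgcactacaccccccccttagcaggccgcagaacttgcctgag
Eno3: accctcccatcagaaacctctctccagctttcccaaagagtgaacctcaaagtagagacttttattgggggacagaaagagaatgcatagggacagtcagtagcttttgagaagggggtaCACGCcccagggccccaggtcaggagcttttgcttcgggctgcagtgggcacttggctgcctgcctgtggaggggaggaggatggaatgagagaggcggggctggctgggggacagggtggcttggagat
Ldhb: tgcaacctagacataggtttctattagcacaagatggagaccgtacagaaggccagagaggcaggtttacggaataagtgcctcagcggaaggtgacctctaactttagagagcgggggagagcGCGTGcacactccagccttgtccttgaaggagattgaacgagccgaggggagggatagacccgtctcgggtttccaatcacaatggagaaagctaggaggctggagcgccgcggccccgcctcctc
Ldha: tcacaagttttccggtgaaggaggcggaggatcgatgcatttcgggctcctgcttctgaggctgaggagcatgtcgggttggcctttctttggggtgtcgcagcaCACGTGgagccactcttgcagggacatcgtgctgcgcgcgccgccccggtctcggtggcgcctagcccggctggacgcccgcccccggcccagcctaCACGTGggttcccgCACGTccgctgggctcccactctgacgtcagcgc

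The Pfkp window held 3 GCGTG matches and no ACGTG match, and the Pgam1 window held 1 ACGTG and 2 GCGTG matches. The Eno3 and Ldhb windows held 1 GCGTG match each. The Ldha window shown held 5 ACGTG matches, counting both strands, since each of its 2 CACGTG palindromes reads as ACGTG on both strands. Another Ldha window, at chr7:46846832-46847081, held 0 ACGTG matches and 1 GCGTG match. Over all windows of the genes described, 18 of 55 windows (32.7%), from 36 genes in the RefSeq table, held ACGTG against 16.6% of all 32851 windows. GCGTG was found in 30 of 55 windows (54.5%) against 28.2% of all windows. CACGTG, the E-box that contains ACGTG, was found in 9.09% against 6.02%, AAGGTCA, a nuclear receptor site, in 3.64% against 4.08%, and TATAAA, the TATA box, in 1.82% against 12.4%, each searched on both strands. A match is a description of the letters and not of binding, and windows of genes that rose and of genes that fell both held matches. Some windows of 1 gene overlap, as for Aldoa, so 1 site can be counted in more than 1 window. The windows were not matched for GC content, so the shares do not show an enrichment of sites.

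Depth was 22309914 to 35210939 counts per library. Values are given as CPM, counts scaled to library size by edgeR's TMM method. The upper limit behind a zero count, set at 3 reads for counting error only, came to 0.0859 to 0.137 CPM. The left ventricle holds many cell types, and in bulk RNA fewer cells of a type and less RNA per cell cannot be told apart. The summed level of 6 cardiomyocyte markers was 64710 to 67080 CPM in WT-Sham, 56880 to 60290 in HCN4F-Sham, 59860 to 60010 in WT-TAC and 47970 to 54100 in HCN4F-TAC hearts. In HCN4F-TAC against HCN4F-Sham hearts, 4 of these 6 markers passed the test lower and 1 passed higher. In WT-TAC against WT-Sham hearts, 2 of the 6 passed lower and 0 passed higher. The sum of 6 fibroblast markers was 961 to 1701 CPM in HCN4F-TAC against 757 to 977 CPM in HCN4F-Sham hearts, with 4 of 6 passing higher. Adipocyte markers were at 0 to 0.489 CPM in sum and skeletal muscle markers at 0.339 to 1.22 CPM. HCN4F-TAC replicate 2 stood apart, with the highest sum of atrial markers (55.3 CPM, against a lowest of 6.32 in its group) and the lowest mitochondrial share of all libraries (13.9%). A near copy elsewhere in the genome or an overlapping gene was found for 16 of the 38 genes. Its counts stayed under 1% of those of the gene except for Pfkp, Gys1 and Mpc1. How reads matching both a gene and its copy were counted is not given. A low count on the copy therefore does not show that the gene lost no reads.

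Levels were compared between genes only per length, as mean CPM per kb of annotated exon, so these values depend on the annotation. The highest levels in WT-Sham hearts were those of Aldoa (1083 CPM per kb), Ldhb (938), Pgam2 (810.4), Eno3 (808) and Gapdh (782). The forms known from adult muscle were above the others in these libraries. Slc2a4, the insulin-responsive GLUT4 transporter, was at 115 CPM per kb against 4.89 for Slc2a1. Pfkm was at 359 against 25.8 for Pfkl and 4.69 for Pfkp. Hk2 was at 57.7 against 23.97 for Hk1, and Pgam2 was far above Pgam1 (14.2). By level in WT-Sham hearts, Pgam1, Slc2a1, Pfkp and Pfkfb1 ranked 31, 33, 34 and 36 of the 38 genes, whereas Ldhb and Eno3 ranked 2 and 4.

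**Figure D1:**
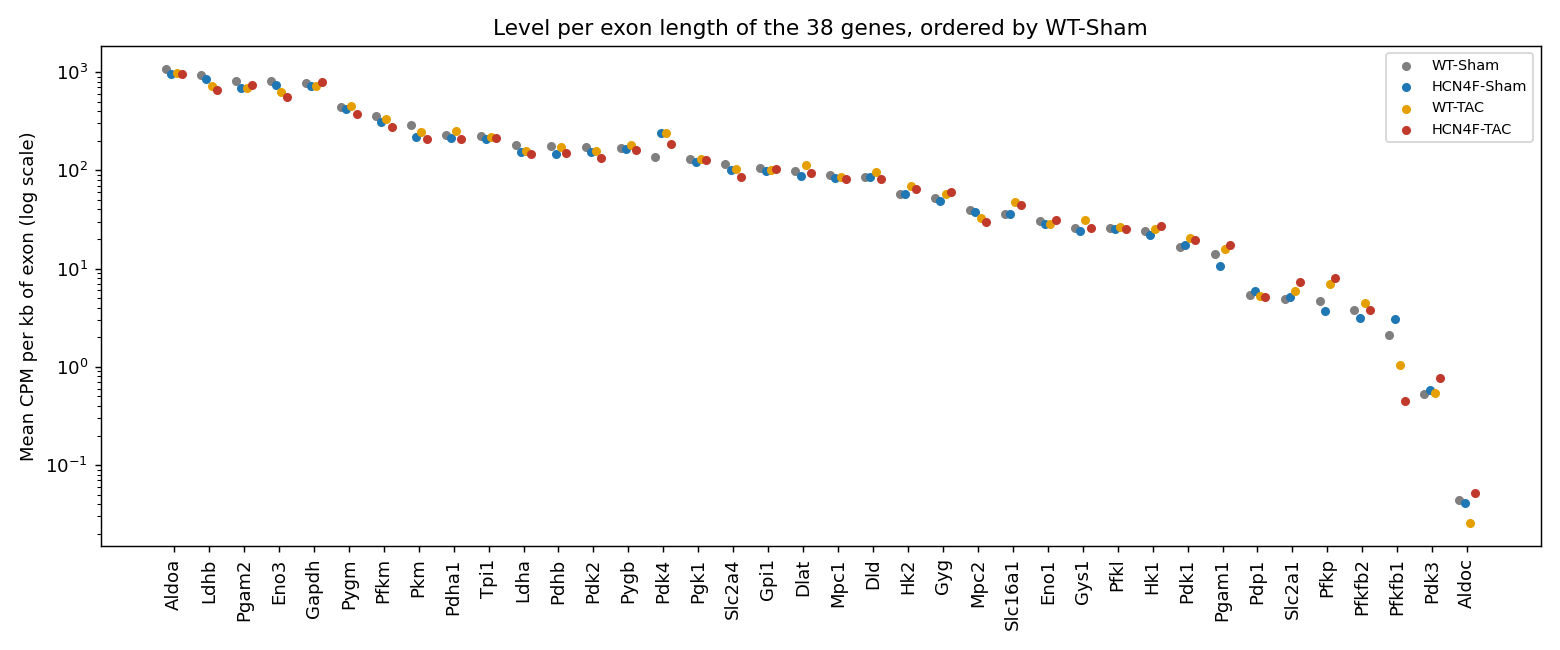
Mean level of each of the 38 genes as CPM per kb of exon (log axis), ordered by WT-Sham, with 1 point per group (4 libraries each, 2 for WT-TAC). The order runs from Aldoa (1083 CPM per kb in WT-Sham) down to Aldoc (0.0443), and the HCN4F-TAC point of Pfkfb1 lies at 0.448 against 3.07 in HCN4F-Sham.

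In WT hearts, 0 of the 37 tested genes rose and 2 fell after TAC at an adjusted p under 0.05 by the edgeR quasi-likelihood test, adjusted by Benjamini-Hochberg over all 15292 genes, while 2.92% of all tested genes rose and 1.62% fell. None of the 37 also changed by more than 1 on the log2 scale, which 0.706% of all genes did, and 9 had an unadjusted p under 0.05, as 22% of all tested genes did. In HCN4F hearts, 4 of 37 rose (7.2% of all genes) and 5 fell (6.41% of all genes), 15 had an unadjusted p under 0.05 (28.3% of all tested genes), and 2 genes, Pfkp and Pfkfb1, changed by more than 1 on the log2 scale (2.75% of all genes). The median log2 fold change of the 37 genes was -0.01 in WT and 0.03 in HCN4F hearts, beside -0.02 and -0.01 over all tested genes. On the WT libraries alone, edgeR called 9 of the genes (3 higher, 6 lower), where it called 13.6% of all genes tested, and DESeq2 called 11 (5 higher, 6 lower), where it called 15.4% of the genes to which it gave an adjusted p. The genes that edgeR added on the WT libraries were Pfkp, Pdk1 and Gys1 among the higher and Pfkfb1, Mpc2, Ldha and Pkm among the lower, and DESeq2 added Slc16a1 and Hk2 to these. Below, a gene is said to pass by the edgeR fit to all groups unless another fit is named.

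In Sham hearts, 1 of 37 genes was lower in HCN4F than in WT (0.242% of all genes were lower) and 0 were higher (0.229% of all genes), with 11 at an unadjusted p under 0.05 (15.2% of all tested genes) and none past 1 on the log2 scale (0.209% of all genes). Of the 37, 31 had a log2 fold change below 0, as had 7479 of the 15292 tested genes, and the median was -0.09 beside 0.00 over all tested genes. The cardiomyocyte marker sum was also lower in this comparison, by -0.17 as the log2 ratio of group means and without overlap, and its part in these values was not tested. In TAC hearts, 0 genes passed by edgeR in either direction (0.0589% of all genes were higher, 0.0523% lower, and 0.0719% past 1 on the log2 scale), and 10 had an unadjusted p under 0.05 (12.5% of all tested genes). There 27 of the 37 lay below 0, as did 7537 of all tested genes, and the median was -0.11 beside 0.00 over all tested genes. In the TAC hearts the cardiomyocyte marker sum differed by -0.23, the fibroblast marker sum by 0.78 and the atrial marker sum by 2.16. All are log2 ratios of group means without overlap, and their part was not tested. The atrial sum reached 55.3 CPM in HCN4F-TAC replicate 2, against a median of 13.96 CPM in that group. DESeq2 fitted on all groups called 1 gene in that comparison, Pfkfb1 (-1.22, adjusted p = 0.0255), and DESeq2 on the 6 TAC libraries called 0. The interaction, which tests whether the TAC response differed between genotypes, passed for 0 of 37 genes (0% of all genes), with 4 at an unadjusted p under 0.05 (9.27% of all tested genes). The lowest adjusted p was that of Pfkfb1 (0.394), which DESeq2 on all groups called at -1.76 (adjusted p = 0.0158).

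**Figure D2:**
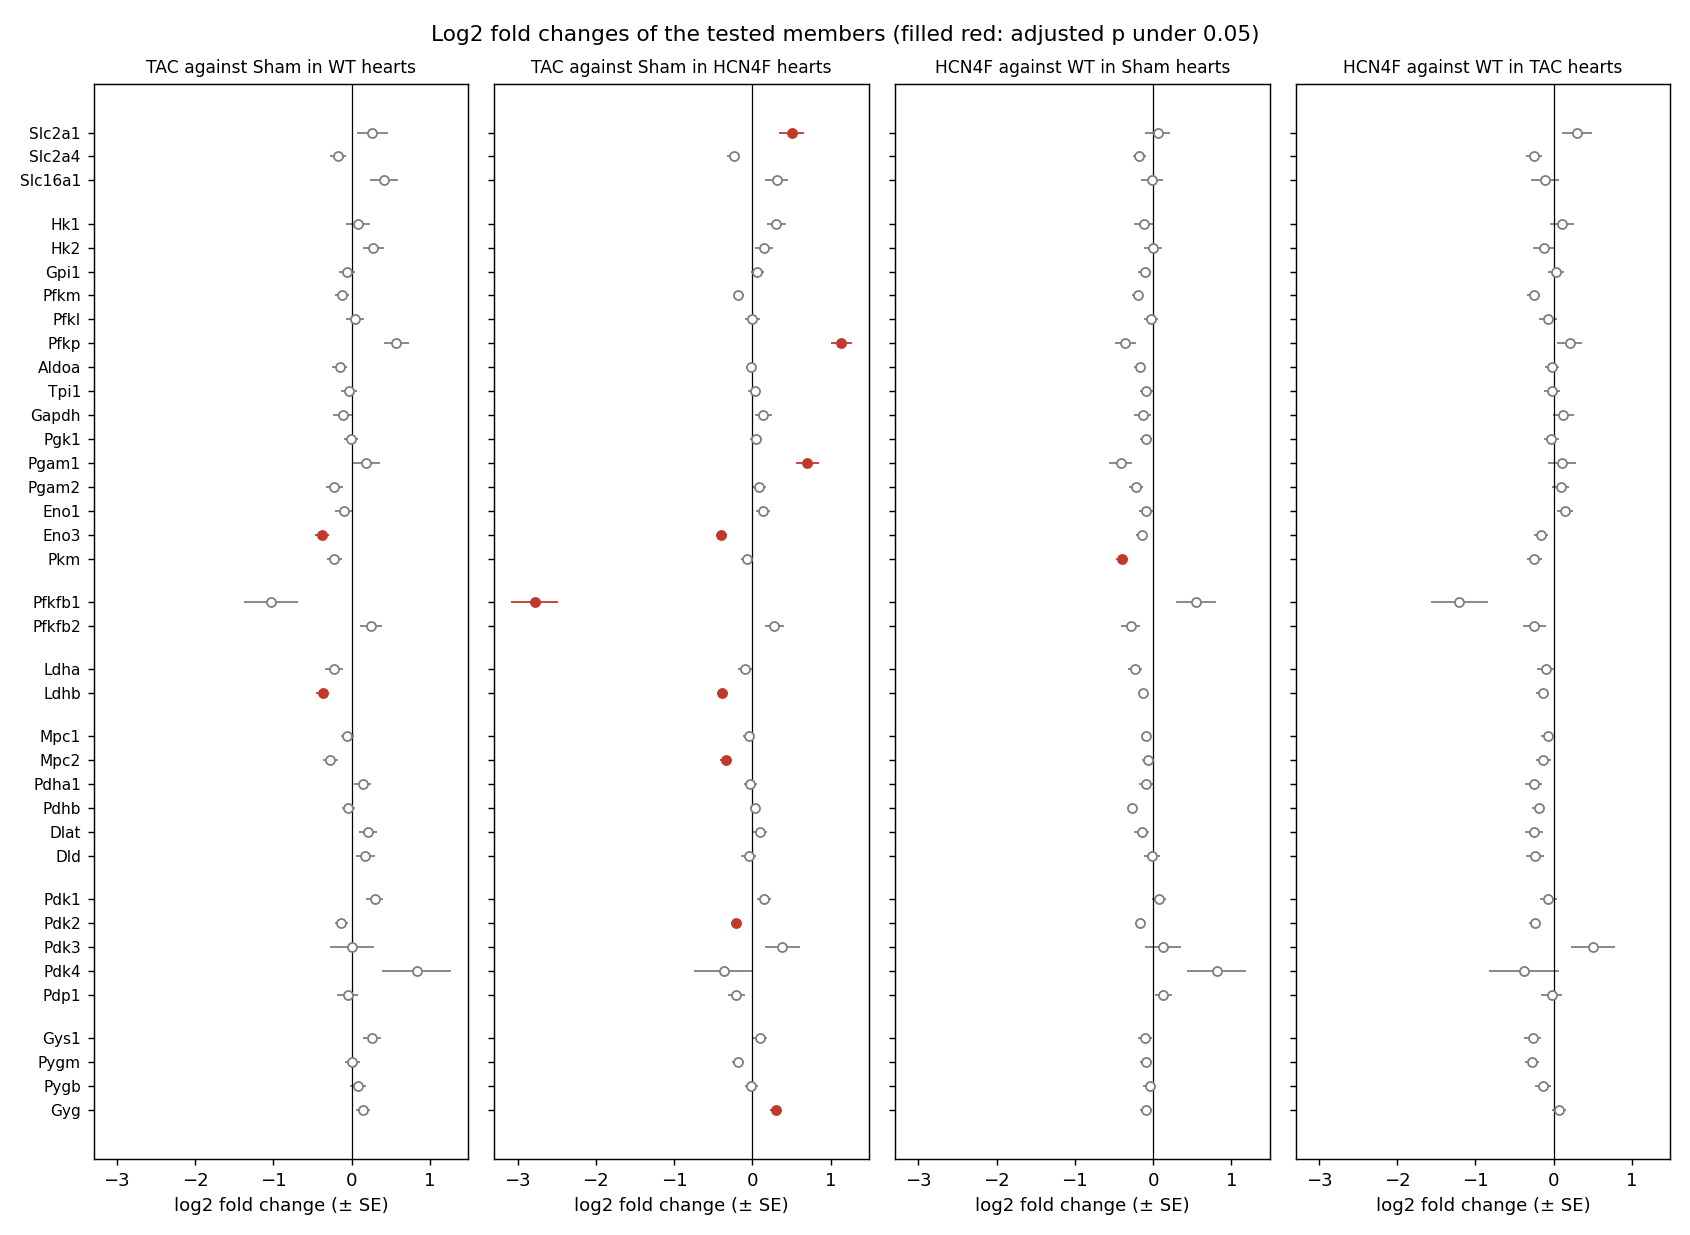
Log2 fold change with its standard error for the 37 tested genes in the 4 comparisons, grouped by role from transport at the top to glycogen at the bottom, with filled red points for an adjusted p under 0.05. The filled points number 9 for TAC in HCN4F hearts, 2 for TAC in WT hearts, 1 for genotype in Sham hearts and 0 for genotype in TAC hearts, and Pfkfb1 lies farthest to the left at -2.78.

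Glucose enters the cell through GLUT1 and GLUT4. Slc2a1, which encodes GLUT1, the transporter that is prominent in fetal heart, was at 15.3, 17.96, 15.9 and 19.5 CPM in the WT-Sham replicates and 19.2, 15.8, 17.3 and 19.1 CPM in the HCN4F-Sham replicates. After TAC it was at 18.9 and 22.3 CPM in WT and 23.3, 36.7, 20.4 and 20.9 CPM in HCN4F hearts. All 4 HCN4F-TAC libraries lay above all 4 HCN4F-Sham libraries, and replicate 2 was well above the other three. In HCN4F hearts its log2 fold change was 0.50 (SE 0.16, adjusted p = 0.0482). Without HCN4F-TAC replicate 2 the log2 fold change was 0.27 (adjusted p = 0.133), and the call was lost in 15 of 22 alternative fits. In WT hearts the log2 fold change of Slc2a1 was 0.26 (SE 0.19, adjusted p = 0.448).

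Slc2a4, the GLUT4 gene, was at 370.3, 408, 420.4 and 403 CPM in WT-Sham and 350.4, 324, 390.1 and 352 CPM in HCN4F-Sham hearts. The TAC values were 361 and 350.5 CPM in WT and 304, 291, 344 and 259.9 CPM in HCN4F hearts. The HCN4F-TAC libraries overlapped the HCN4F-Sham libraries, and no comparison of Slc2a4 passed the test. Its log2 fold change after TAC was -0.24 (SE 0.08, adjusted p = 0.0686) in HCN4F and -0.17 (SE 0.10, adjusted p = 0.349) in WT hearts. It passed in HCN4F hearts without HCN4F-Sham replicate 2 (-0.28, adjusted p = 0.0452) and without HCN4F-TAC replicate 3 (-0.31, adjusted p = 0.0166). Slc16a1, the lactate and pyruvate transporter MCT1, was at 105 to 187 CPM in the Sham and 182 to 223 CPM in the TAC libraries, with log2 fold changes of 0.41 (SE 0.17, adjusted p = 0.181) in WT and 0.31 (SE 0.14, adjusted p = 0.171) in HCN4F hearts. The WT value passed without HCN4F-Sham replicate 2 (0.41, adjusted p = 0.0376) and with DESeq2 on the WT libraries alone (0.44, adjusted p = 0.00552).

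Hexokinase traps glucose in the cell. Hk1, the form of brain and fetal heart, was at 181, 206, 225 and 206 CPM in WT-Sham and 220.5, 196, 180.2 and 158 CPM in HCN4F-Sham hearts. With TAC it was at 201 and 232 CPM in WT and 182, 284, 228 and 238 CPM in HCN4F hearts. The groups overlapped in every comparison, and the log2 fold change in HCN4F hearts was 0.30 (SE 0.12, adjusted p = 0.115), or 0.41 (adjusted p = 0.033) without HCN4F-TAC replicate 1. Hk2, the insulin-regulated muscle form, was at 307, 356, 383 and 332 CPM in WT-Sham and 346, 270.4, 386 and 374 CPM in HCN4F-Sham hearts. Under TAC the Hk2 values were 389 and 444 CPM in WT and 356, 447, 377 and 346 CPM in HCN4F hearts. Both WT-TAC libraries lay above all WT-Sham libraries, but the log2 fold change of 0.27 (SE 0.13, adjusted p = 0.244) did not pass.

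Phosphofructokinase commits sugar to glycolysis, and it is encoded by 3 isoform genes. Pfkp, the platelet form, was at 64.7, 57.7, 62.3 and 66.9 CPM in WT-Sham and 53.3, 52.99, 42.5 and 47.5 CPM in HCN4F-Sham hearts. After TAC it reached 81.8 and 105 CPM in WT and 98.2, 145, 89.5 and 97.9 CPM in HCN4F hearts. Every TAC library lay above every Sham library of either genotype. The rise in HCN4F hearts was 2.19-fold, a log2 fold change of 1.13 (SE 0.13, adjusted p = 9.62e-05), and it passed in all 22 alternative fits, with 0.95 (adjusted p = 4.92e-05) without HCN4F-TAC replicate 2. In WT hearts the log2 fold change was 0.57 (SE 0.16, adjusted p = 0.0523), just outside the threshold, and it passed with DESeq2 on all groups (0.59, adjusted p = 0.0133) and with edgeR on the WT libraries alone (0.59, adjusted p = 0.00608). Without HCN4F-TAC replicate 2 the WT value was 0.59 (adjusted p = 0.0114). The difference between the responses of the genotypes was 0.56 (SE 0.21, adjusted p = 0.467) on the log2 scale and did not pass. In Sham hearts every HCN4F library lay below every WT library, with a log2 fold change of -0.36 (SE 0.13, adjusted p = 0.225). This did not pass, though it did with DESeq2 on the Sham libraries alone (-0.36, adjusted p = 0.0127). Pfkp overlaps Pitrm1, whose counts came to 54.3% of those of Pfkp and whose log2 fold change in HCN4F hearts was 0.03 (SE 0.10, adjusted p = 0.885).

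Pfkm, the muscle form, was at 1143, 1190, 1262 and 1206 CPM in WT-Sham and 1097, 978, 1085 and 1031 CPM in HCN4F-Sham hearts. The TAC libraries gave 1145 and 1061 CPM in WT and 871, 929, 1018 and 878 CPM in HCN4F hearts. All HCN4F-Sham libraries lay below all WT-Sham libraries, yet no comparison passed, with log2 fold changes of -0.20 (SE 0.07, adjusted p = 0.203) for genotype in Sham and -0.18 (SE 0.07, adjusted p = 0.0974) for TAC in HCN4F hearts. Without HCN4F-TAC replicate 3 the latter was -0.23 (adjusted p = 0.0372). Pfkl, the liver form, was at 149.6 to 207 CPM over all libraries and its log2 fold change after TAC was 0.00 (SE 0.09, adjusted p = 0.995) in HCN4F hearts.

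The pair of genes for fructose 2,6-bisphosphate, an activator of phosphofructokinase, included the largest fitted change among the 37 genes. Pfkfb1, the liver and muscle form of the enzyme that makes and removes it, was at 9.31, 8.41, 7.49 and 8.66 CPM in WT-Sham and 9.11, 9.40, 20.03 and 10.8 CPM in HCN4F-Sham hearts. After TAC it stood at 4.52 and 3.81 CPM in WT and 2.28, 1.12, 2.61 and 1.18 CPM in HCN4F hearts. No TAC library reached any Sham library, and every HCN4F-TAC library was below both WT-TAC libraries. In HCN4F hearts the log2 fold change was -2.78 (SE 0.30, adjusted p = 8e-05), or 0.145 of the Sham level. HCN4F-Sham replicate 3 was the highest of the Sham libraries, and leaving it out gave -2.45 (adjusted p = 3.27e-05). In WT hearts it was -1.03 (SE 0.34, adjusted p = 0.0998), and between genotypes under TAC -1.21 (SE 0.37, adjusted p = 0.202), and neither passed. The fall in WT hearts did pass with DESeq2 on all groups (-1.01, adjusted p = 0.0231), with DESeq2 (-1.01, adjusted p = 1.34e-06) or edgeR (-1.02, adjusted p = 0.00184) on the WT libraries alone, and without HCN4F-Sham replicate 3 (-1.04, adjusted p = 0.0258). Pfkfb2, the heart form, was at 17.5 to 33.3 CPM over all libraries, with a log2 fold change after TAC of 0.28 (SE 0.12, adjusted p = 0.128) in HCN4F and 0.24 (SE 0.14, adjusted p = 0.333) in WT hearts. Without HCN4F-Sham replicate 4 the value in HCN4F hearts was 0.43 (adjusted p = 0.0117).

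**Figure D3:**
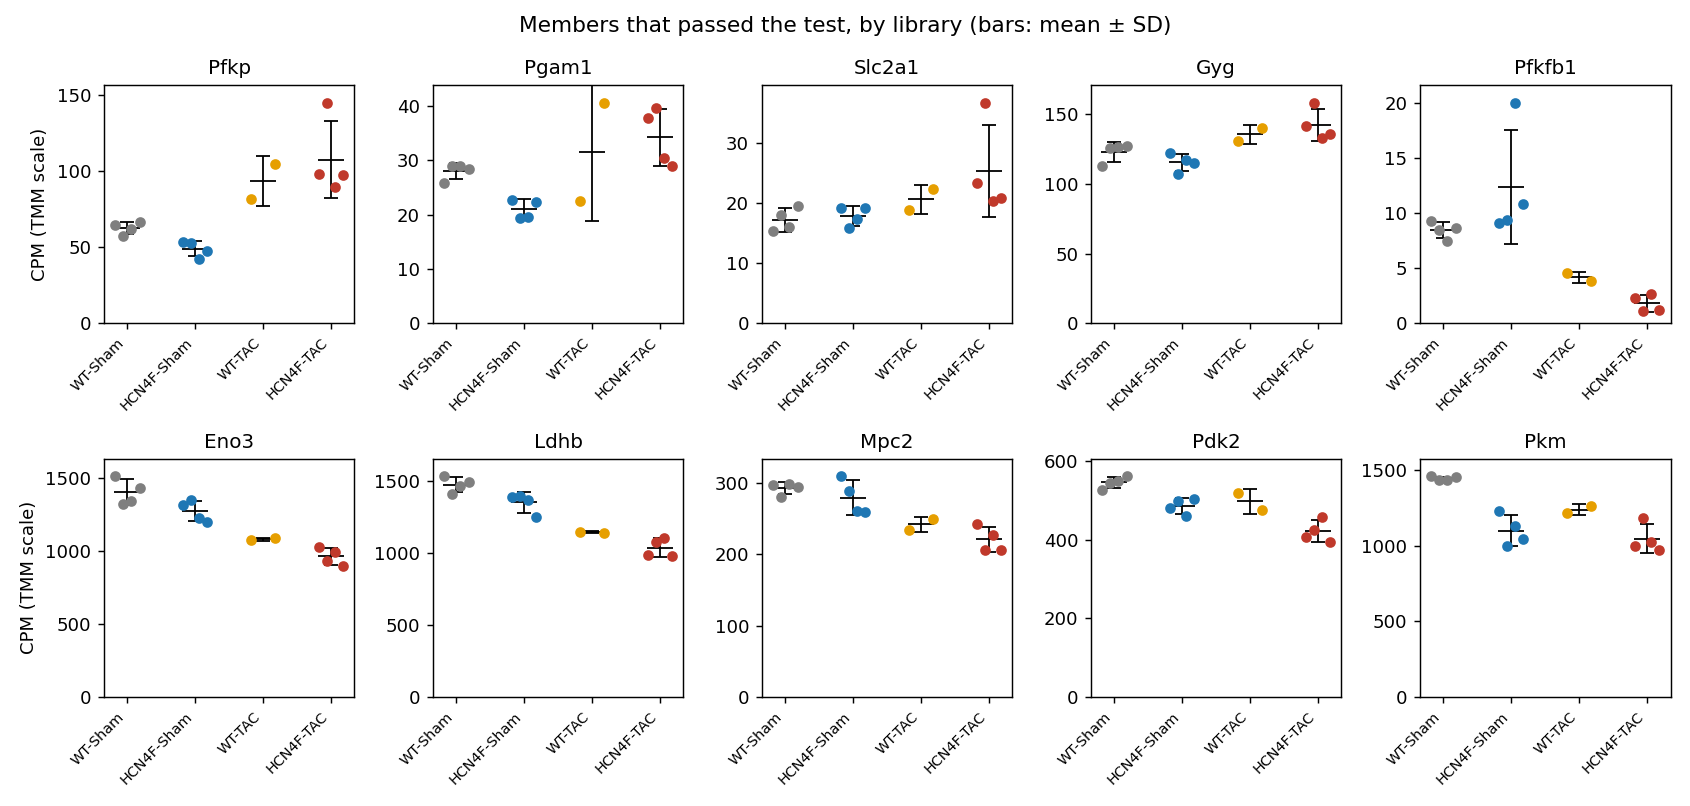
CPM of the 10 genes that passed the test in at least 1 comparison, with 1 point per library and the mean ± SD of each group (4 libraries, 2 for WT-TAC). Pfkp lies above all Sham libraries in every TAC library, Pfkfb1 lies below them, and the 4 WT-Sham points of Pkm (1435 to 1458) lie above every other library.

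Of the enzymes from hexose phosphate to triose, Gpi1, Aldoa, Tpi1, Gapdh and Pgk1 did not pass in any comparison. Gapdh, often used as a reference gene, averaged 3232 ± 173 CPM (SD, n = 4) in the WT-Sham libraries. Its HCN4F-TAC libraries averaged 3256 ± 593 CPM (SD, n = 4), and replicate 2 of that group reached 4120 CPM. Aldoc was listed at 0.0353 to 0.325 CPM, close to the level that 3 reads give.

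Phosphoglycerate mutase and enolase carry out the steps before pyruvate kinase, each with a muscle form and a general form. Pgam1, the form found outside muscle, was at 25.8, 28.9, 29.02 and 28.4 CPM in WT-Sham and 22.7, 19.4, 19.6 and 22.4 CPM in HCN4F-Sham hearts. After TAC the values were 22.6 and 40.6 CPM in WT and 37.8, 39.7, 30.5 and 29.04 CPM in HCN4F hearts. All HCN4F-TAC libraries lay above all HCN4F-Sham libraries, while the 2 WT-TAC libraries lay on either side of the WT-Sham libraries. This gave a log2 fold change of 0.70 (SE 0.15, adjusted p = 0.00573) in HCN4F and 0.18 (SE 0.18, adjusted p = 0.585) in WT hearts, where it turned to -0.31 without WT-TAC replicate 3. HCN4F-Sham hearts lay below WT-Sham hearts in every library, with a log2 fold change of -0.41 (SE 0.15, adjusted p = 0.205) that did not pass, though it did with edgeR on the Sham libraries alone (-0.41, adjusted p = 0.0394). Pgam2, the muscle form, was at 511 to 726 CPM with 0.08 (SE 0.09, adjusted p = 0.567) in HCN4F hearts.

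Eno3, which encodes muscle enolase, was at 1513, 1325, 1346 and 1435 CPM in WT-Sham and 1313, 1350, 1228 and 1203 CPM in HCN4F-Sham hearts. It stood at 1074 and 1087 CPM in WT-TAC and 1031, 934, 995 and 901 CPM in HCN4F-TAC hearts. Every TAC library lay below every Sham library. Its log2 fold change was -0.38 (SE 0.09, adjusted p = 0.027) in WT and -0.40 (SE 0.07, adjusted p = 0.00148) in HCN4F hearts, with an interaction of -0.02 (SE 0.11). The fall in HCN4F hearts passed in all 22 alternative fits. In WT hearts it was lost without WT-Sham replicate 1 (adjusted p = 0.077) or 4 (0.0758) and without WT-TAC replicate 2 (0.14) or 3 (0.239), with log2 fold changes of -0.39 to -0.35. Eno1, the ubiquitous enolase, was at 141.8 to 196.5 CPM and passed in no comparison.

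Pkm, pyruvate kinase of muscle and of proliferating cells, whose splice forms M1 and M2 are summed in these counts, lies at chr9:59656368-59679375 (GRCm38, plus strand) and 793.2 kb from Hcn4, at chr9:58823412-58863175. Its values were 1458, 1435, 1437 and 1451 CPM in WT-Sham and 1227, 996, 1131 and 1041 CPM in HCN4F-Sham hearts. After TAC they were 1213 and 1264 CPM in WT and 996, 1183, 1027 and 972 CPM in HCN4F hearts. In Sham and in TAC hearts every HCN4F library lay below every WT library. The log2 fold change between genotypes was -0.40 (SE 0.08, adjusted p = 0.0331) in Sham and -0.25 (SE 0.09, adjusted p = 0.294) in TAC hearts. The Sham call was kept in 13 of 22 alternative fits and was lost without any 1 of the WT-Sham libraries (adjusted p = 0.0643, 0.1, 0.0945 and 0.11 without replicates 1 to 4) and without HCN4F-Sham replicate 2 (0.0666), 3 (0.062) or 4 (0.101), with log2 fold changes of -0.41 to -0.35. The cardiomyocyte marker sum differed by -0.17 (log2 of the ratio of group means) between genotypes in Sham hearts, and its part in the Pkm difference was not tested. After TAC the log2 fold change of Pkm was -0.22 (SE 0.10, adjusted p = 0.186) in WT and -0.07 (SE 0.08, adjusted p = 0.579) in HCN4F hearts.

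Because the mutation was placed on chromosome 9, its neighbours were compared between genotypes as well. Among the 18 other tested genes within 1 Mb of Pkm, Hcn4 included, log2 fold changes in Sham hearts ran from -0.44 to 0.32. The gene at -0.44, AC160637.1, overlaps Pkm itself. The lowest adjusted p was 0.0871, that of Adpgk, whose enzyme phosphorylates glucose with ADP, at -0.43. In TAC hearts the lowest adjusted p in that stretch was 0.181. Over 40 to 75 Mb of chromosome 9, 302 genes were tested, Pkm included. There 3 passed higher and 10 lower in Sham hearts, beside 0.229% and 0.242% of all tested genes. For TAC hearts the counts were 1 higher and 5 lower, beside 0.0589% and 0.0523%. The mutation and the chromosome segment inherited with it cannot be told apart in this design. Dlat, the E2 subunit of the pyruvate dehydrogenase complex, is the other gene of the set on chromosome 9, at chr9:50634633-50659780 (minus strand), 8.16 Mb from Hcn4. Its log2 fold change between genotypes was -0.15 (SE 0.09, adjusted p = 0.47) in Sham and -0.25 (SE 0.11, adjusted p = 0.366) in TAC hearts. Within 1 Mb of Dlat, 5 of 23 other tested genes (Cryab, Dixdc1, Plet1, Plet1os and Pts) passed lower in HCN4F against WT Sham hearts, as 0.242% of all tested genes did. In TAC hearts 3 of the 23 (Dixdc1, Plet1os and Pts) passed lower, as 0.0523% of all tested genes did.

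**Figure D4:**
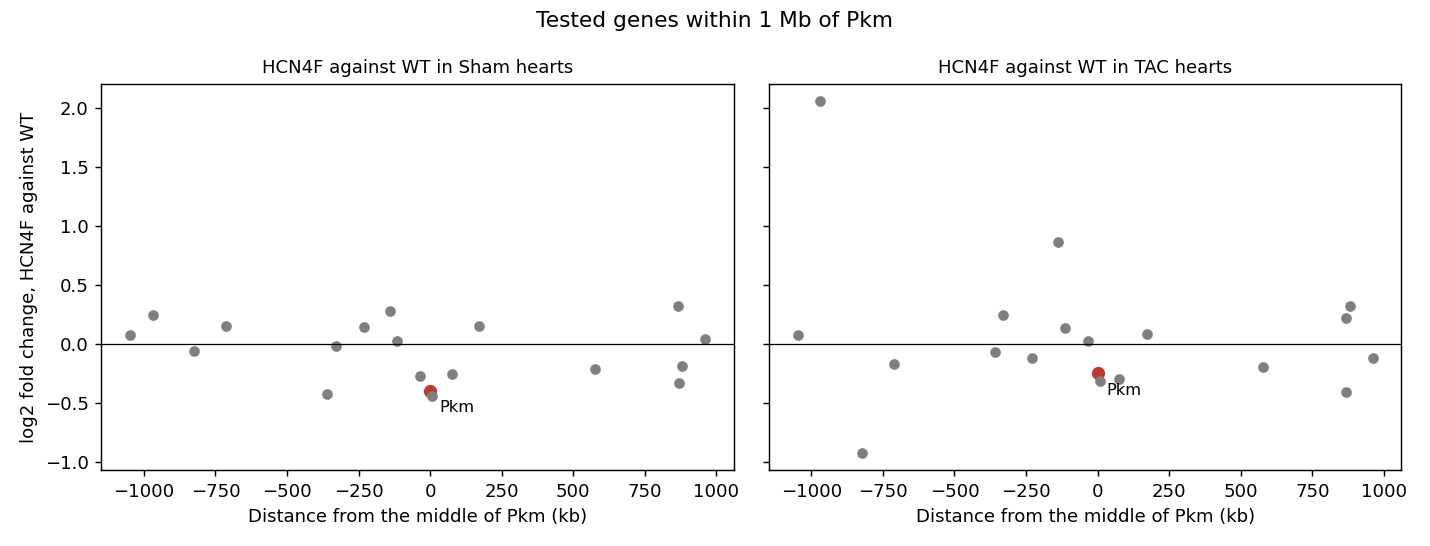
Log2 fold change of HCN4F against WT for the tested genes within 1 Mb of Pkm in Sham (left) and TAC (right) hearts, by distance from the middle of Pkm in kb. Pkm (red) lies at -0.40 in Sham and -0.25 in TAC hearts, and the 18 other genes spread on both sides of 0.

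Lactate dehydrogenase interconverts pyruvate and lactate. Ldhb, the heart subunit, was at 1530, 1406, 1463 and 1491 CPM in WT-Sham and 1388, 1393, 1369 and 1245 CPM in HCN4F-Sham hearts. After TAC it fell to 1147 and 1136 CPM in WT and 981, 1076, 1105 and 978 CPM in HCN4F hearts. Every TAC library lay below every Sham library, as for Eno3. The log2 fold change was -0.37 (SE 0.08, adjusted p = 0.0254) in WT and -0.38 (SE 0.07, adjusted p = 0.00148) in HCN4F hearts, with an interaction of -0.01 (SE 0.11). The fall in HCN4F hearts passed in all 22 alternative fits, and the fall in WT hearts was lost without WT-Sham replicate 1 (adjusted p = 0.0694) or 4 (0.072) and without WT-TAC replicate 2 (0.12) or 3 (0.25), with log2 fold changes of -0.37 to -0.35.

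Ldha, the muscle subunit and a classical HIF-1 target, was at 622, 576, 601 and 612 CPM in WT-Sham and 595, 508, 473 and 479.8 CPM in HCN4F-Sham hearts. The TAC values were 516 and 516 CPM in WT and 472, 570.0, 467 and 416 CPM in HCN4F hearts. Ldha did not pass in any comparison, and its log2 fold changes after TAC were -0.22 (SE 0.11, adjusted p = 0.258) in WT and -0.10 (SE 0.09, adjusted p = 0.53) in HCN4F hearts. The cardiomyocyte marker sum differed by -0.13 (log2 of the ratio of group means) after TAC in WT and by -0.19 in HCN4F hearts, beside the falls of Eno3, Ldhb, Mpc2, Pdk2 and Pfkfb1, and its part in them was not tested.

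Pyruvate enters mitochondria through a carrier of 2 subunits. Mpc2 was at 297, 280.2, 298 and 294 CPM in WT-Sham and 309, 289, 259.8 and 259 CPM in HCN4F-Sham hearts. TAC libraries held 234 and 249 CPM in WT and 243, 206, 227 and 206 CPM in HCN4F hearts. All TAC libraries lay below all Sham libraries of their genotype. Mpc2 gave a log2 fold change of -0.34 (SE 0.08, adjusted p = 0.00699) in HCN4F hearts, which passed in all 22 alternative fits, and -0.27 (SE 0.09, adjusted p = 0.0995) in WT hearts. Mpc1, the partner subunit, was at 155.5 to 197 CPM with -0.05 (SE 0.07, adjusted p = 0.694) in HCN4F hearts, and its near-identical pseudogene Mpc1-ps held counts equal to 12.8% of those of Mpc1, so reads may be split between them.

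The 4 genes of the pyruvate dehydrogenase complex, Pdha1, Pdhb, Dlat and Dld, did not pass in any comparison of the edgeR fit to all groups. Pdhb, the E1 beta subunit, had -0.27 (SE 0.07, adjusted p = 0.0847) for genotype in Sham hearts, where all HCN4F libraries (516 to 592 CPM) lay below all WT libraries (654 to 717 CPM). That difference passed with DESeq2 on all groups (-0.27, adjusted p = 0.00508), with DESeq2 on the Sham libraries alone (-0.27, adjusted p = 0.0151) and without HCN4F-Sham replicate 1 (-0.28, adjusted p = 0.0399).

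Pyruvate dehydrogenase kinases switch the complex off, and the phosphatase Pdp1 switches it on. Pdk2 was at 528, 546, 551 and 562 CPM in WT-Sham and 482, 499.9, 461 and 503 CPM in HCN4F-Sham hearts. TAC values were 521 and 476 CPM in WT and 407, 426, 459.5 and 396 CPM in HCN4F hearts. The HCN4F-TAC libraries lay below all HCN4F-Sham libraries, and the highest of them nearly met the lowest of the Sham group. In HCN4F hearts Pdk2 fell with a log2 fold change of -0.20 (SE 0.07, adjusted p = 0.0496), which was kept in 4 of 22 alternative fits. It was lost when any 1 library other than HCN4F-Sham replicate 3 or HCN4F-TAC replicate 3 was left out, and over all alternatives the log2 fold change ran from -0.25 to -0.12 (adjusted p from 0.0135 to 0.312).

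Pdk4, the kinase induced by fasting and fatty acids, varied widely within groups. It was at 734, 640.2, 195 and 342 CPM in WT-Sham and 1294, 541, 836 and 692 CPM in HCN4F-Sham hearts. Under TAC it was at 882 and 814 CPM in WT and 696, 669, 706 and 536 CPM in HCN4F hearts. Replicate 3 was the lowest of the WT-Sham and replicate 1 the highest of the HCN4F-Sham libraries, and no comparison passed. The log2 fold change was 0.83 (SE 0.45, adjusted p = 0.306) for TAC in WT, -0.37 (SE 0.37, adjusted p = 0.563) for TAC in HCN4F and 0.82 (SE 0.38, adjusted p = 0.334) for genotype in Sham hearts. Pdk1, Pdk3 and Pdp1 passed in no comparison either, with Pdk3 at 0.903 to 2.36 CPM.

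Glycogen is built on glycogenin by glycogen synthase and broken down by phosphorylase. Gyg, which encodes glycogenin, was at 113, 126, 127 and 127 CPM in WT-Sham and 122, 107, 117 and 115 CPM in HCN4F-Sham hearts. After TAC it was at 131 and 140.2 CPM in WT and 142, 158, 133 and 136 CPM in HCN4F hearts. Every TAC library lay above every Sham library of either genotype. Gyg rose in HCN4F hearts with a log2 fold change of 0.30 (SE 0.07, adjusted p = 0.0115), which passed in all 22 alternative fits. In WT hearts the log2 fold change was 0.14 (SE 0.09, adjusted p = 0.374). The fibroblast marker sum differed by 0.80 (log2 of the ratio of group means) after TAC in HCN4F hearts, beside the rises of Pfkp, Pgam1, Slc2a1 and Gyg, and its part in them was not tested.

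Gys1, the muscle glycogen synthase, was at 121, 127, 132 and 119 CPM in WT-Sham and 134, 93.8, 120.5 and 117 CPM in HCN4F-Sham hearts. After TAC it was at 142 and 156 CPM in WT and 120.1, 128, 133 and 114 CPM in HCN4F hearts. Both WT-TAC libraries lay above every other library, and the log2 fold change of 0.26 (SE 0.11, adjusted p = 0.179) in WT hearts did not pass. Gys1 overlaps Ruvbl2, whose counts came to 20% of its own and whose log2 fold change in WT hearts was -0.13 (SE 0.09, adjusted p = 0.399). Pygm, the muscle phosphorylase, was at 1393, 1424, 1472 and 1447 CPM in WT-Sham and 1444, 1240, 1423 and 1280 CPM in HCN4F-Sham hearts. Under TAC the values of Pygm were 1490 and 1399 CPM in WT and 1093, 1174, 1359 and 1137 CPM in HCN4F hearts. The HCN4F-TAC libraries lay below both WT-TAC libraries, with a log2 fold change of -0.28 (SE 0.09, adjusted p = 0.229) that did not pass. Without HCN4F-TAC replicate 3 the log2 fold change was -0.35 (adjusted p = 0.0408), in a fit that called 2.97% of all genes. Pygb, the brain form, was at 661 to 939 CPM and passed in no comparison.

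To compare isoforms free of library scaling, the log2 ratio of the counts of 10 isoform pairs was taken within each library and tested with an exact two-sided permutation test, with adjustment over 10 pairs and 4 comparisons (40 tests). After TAC in HCN4F hearts, the ratio of Pfkp to Pfkm differed by 1.29, that of Slc2a1 to Slc2a4 by 0.71, that of Pgam1 to Pgam2 by 0.60 and that of Eno1 to Eno3 by 0.53 on the log2 scale. Each had an exact permutation p of 0.0286, the smallest that 4 against 4 libraries allow, and an adjusted p of 0.229. In WT hearts the same differences were 0.68 for Pfkp to Pfkm, 0.43 for Slc2a1 to Slc2a4, 0.34 for Pgam1 to Pgam2 and 0.27 for Eno1 to Eno3, where 4 against 2 libraries cannot go below an exact permutation p of 0.133. The Pgam1 to Pgam2 libraries overlapped in WT hearts, and without WT-TAC replicate 3 that difference was -0.0096. The Pfkp to Pfkm difference in WT hearts was 0.45 without WT-TAC replicate 3. The ratio of Ldha to Ldhb differed by 0.28 in HCN4F hearts, with overlapping libraries (exact permutation p = 0.0857, adjusted p = 0.336). In WT hearts that ratio differed by 0.14, with both WT-TAC libraries above every WT-Sham library (exact permutation p = 0.133, adjusted p = 0.336). Hk1 to Hk2 differed by -0.19 in WT hearts and by 0.14 in HCN4F hearts, where the libraries overlapped and the difference ran from 0.01 (without HCN4F-Sham replicate 4) to 0.28. Pdk4 to Pdk2 differed by 1.14 in WT hearts and by -0.09 in HCN4F hearts, where the libraries overlapped and the sign turned (0.14) without HCN4F-Sham replicate 1. Between genotypes, the ratio of Pfkl to Pfkm differed by 0.17, with every HCN4F-Sham library above every WT-Sham library (exact permutation p = 0.0286, adjusted p = 0.229). With these smallest exact p-values, no difference could have passed 0.05 after adjustment over the 40 tests, so the adjusted values do not separate the pairs.

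**Figure D5:**
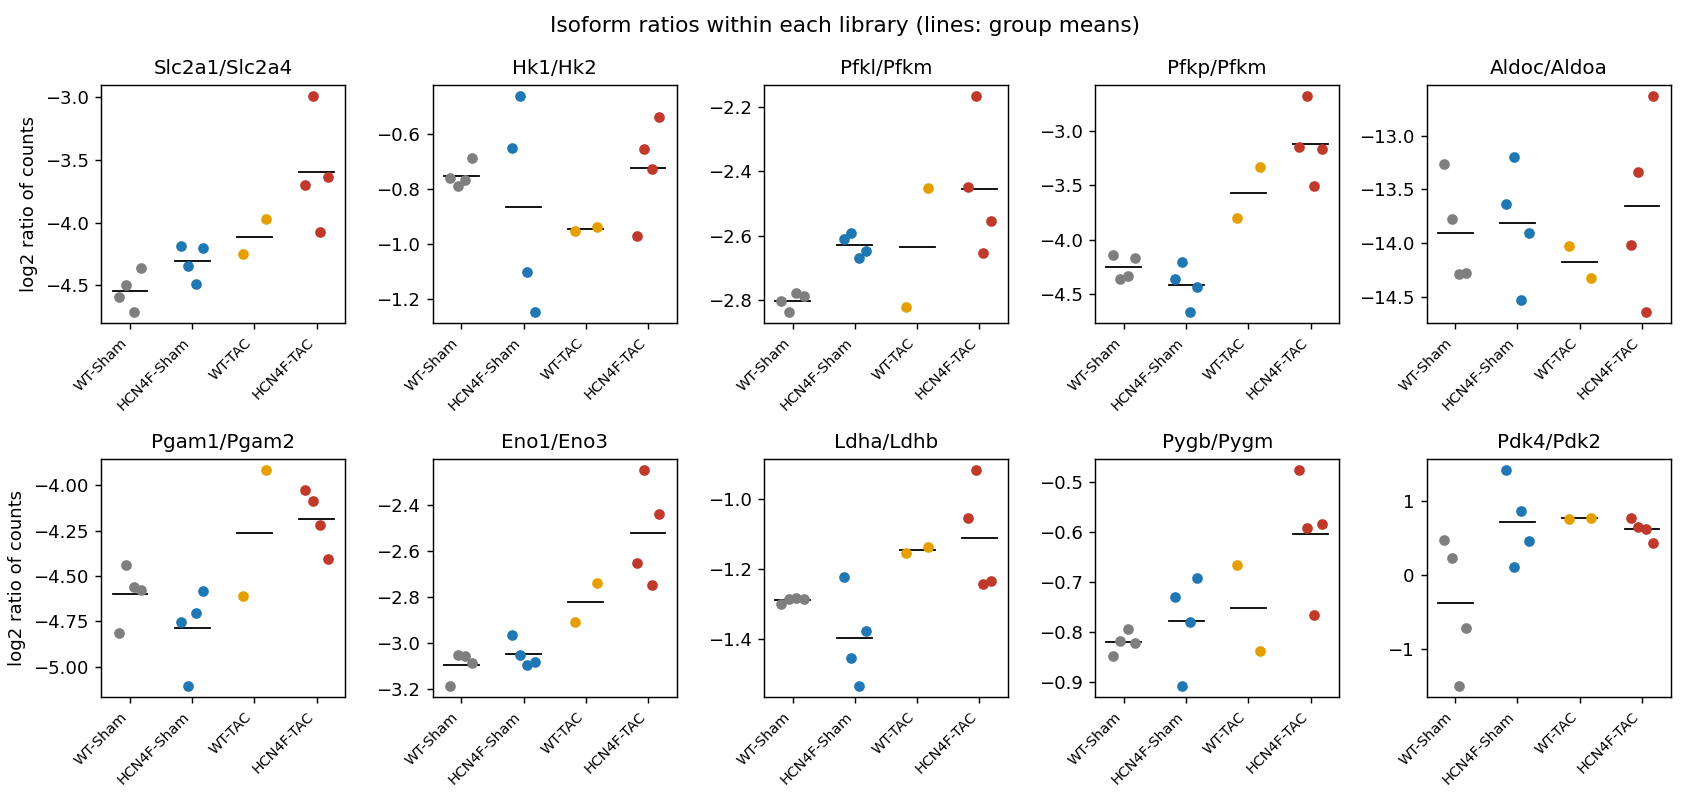
Log2 ratio of counts within each library for the 10 isoform pairs, with 1 point per library and a line at the mean of each group. The HCN4F-TAC libraries lie above all HCN4F-Sham libraries for Pfkp/Pfkm, Slc2a1/Slc2a4, Pgam1/Pgam2 and Eno1/Eno3, while those of Hk1/Hk2 and Aldoc/Aldoa overlap.

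A further 51 genes of the same pathways were listed, of which 48 were tested. Their calls were not checked under the alternative fits, and those in WT hearts rest on 2 WT-TAC libraries. After TAC, 7 rose and 1 fell in WT hearts, where 2.92% of all tested genes rose and 1.62% fell. In HCN4F hearts 9 rose and 4 fell, beside 7.2% and 6.41% of all tested genes, and the median log2 fold change of the 48 was 0.04 in both genotypes. Hif1a, the oxygen-regulated subunit of HIF-1, rose in both, by 0.63 (SE 0.11, adjusted p = 0.00634) in WT and 0.47 (SE 0.09, adjusted p = 0.00214) in HCN4F hearts. Ugp2, which makes UDP-glucose for glycogen, Phka1, a phosphorylase kinase subunit, and Gfpt1, which feeds the hexosamine pathway, also rose in both genotypes, with log2 fold changes of 0.31 to 0.66.

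In HCN4F hearts, and not in WT hearts, the genes that passed included Slc16a3, the lactate exporter MCT4 (log2 fold change 0.68, SE 0.17, adjusted p = 0.0129), Ppp1r3c, a glycogen-targeting phosphatase subunit (log2 fold change 1.27, SE 0.33, adjusted p = 0.0267), Gfpt2, a paralogue of Gfpt1 (log2 fold change 0.63, SE 0.15, adjusted p = 0.0091) and Tigar, a fructose bisphosphatase (log2 fold change 0.48, SE 0.09, adjusted p = 0.00184), which rose. The muscle fructose bisphosphatase Fbp2 (log2 fold change -0.96, SE 0.13, adjusted p = 0.000144), the pyruvate dehydrogenase phosphatase gene Pdp2 (log2 fold change -1.14, SE 0.20, adjusted p = 0.00293) and the phosphorylase kinase subunit Phkg1 (log2 fold change -1.27, SE 0.24, adjusted p = 0.00443) fell there. Gsk3b, a kinase that inhibits glycogen synthase (log2 fold change 0.44, SE 0.09, adjusted p = 0.0134), passed in WT and not in HCN4F hearts. Passing in 1 genotype and not in the other does not show a difference, and the lowest adjusted p of the interaction over the 48 genes was 0.223. Txnip, which restrains glucose uptake, rose after TAC in WT hearts (log2 fold change 0.68, SE 0.16, adjusted p = 0.0298) and was higher in HCN4F against WT Sham hearts (log2 fold change 0.73, SE 0.13, adjusted p = 0.0251), the 1 listed gene to pass between genotypes.

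Summed over all 38 genes, the libraries held 22520 to 23180 CPM in WT-Sham, 20040 to 22590 in HCN4F-Sham, 21500 to 22070 in WT-TAC and 18950 to 22120 in HCN4F-TAC libraries. The 27 tested genes that passed in no comparison had log2 fold changes between -0.37 and 0.38 after TAC in HCN4F hearts and between -0.22 and 0.83 in WT hearts, with the outer values being those of Pdk4, Pdk3 and Ldha.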

How the data were processed

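Poly(A) RNA of left ventricle was sequenced on an Illumina platform. The deposited values are raw counts of reads per gene made by the authors, 1 column per library, on GRCm38 per the submitters' processing notes. The aligner, annotation release and use of strand are not given in the sources used here, so overlapping genes cannot be separated by strand. The 14 labelled libraries were used, and 2 further columns that match no labelled sample were not.

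Counts were fitted with edgeR 4.0.16 (R 4.3.3): TMM scaling, filterByExpr (15292 of 49315 genes kept), a mean per group over all 14 libraries, and quasi-likelihood tests, whose p-values were adjusted by Benjamini-Hochberg across the 15292 genes. Genes with an adjusted p below 0.05 are said to pass, and those whose log2 fold change also exceeded 1 in size were counted separately. CPM are on the TMM scale. The standard error is the log2 fold change divided by the root of its F statistic. Isoform ratios used counts plus a prior of 2 and an exact two-sided permutation test (scipy 1.17.1). DESeq2 1.42.0, other scalings and filters, the replicate number as a block and leaving out each library were alternatives.

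Gene positions and exon lengths come from GRCm38 annotation (GENCODE), which held 99.3% of the gene IDs, and promoters from RefSeq. Near copies were searched with blastn 2.17.0 at 95% identity over 150 bases, and 16 of 38 genes had one.

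Values in every library are given for each gene that passed in a pairwise comparison and for Slc2a1, Slc2a4, Hk1, Hk2, Pfkm, Pfkp, Pkm, Ldha, Ldhb, Pdk4, Pygm and Gys1. Other genes are given by range and count, genes on chromosome 9 with their position, and further pathway genes where they passed, except for some that enter the counts and are not reported here by name. The genes and lists were chosen with earlier results of these data known.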

Additional observations from a re-analysis of the deposited data

Results flagged for a closer look

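Over 114 combinations of a gene and a group of 4 libraries, 5 held a library far from the other three by Dixon's criterion at the 95% level, and chance alone marks about 1 in 20. Pfkp was at 145.3 CPM in HCN4F-TAC replicate 2, against 89.5 to 98.2 in the others of its group. Pfkfb1 was at 20.03 CPM in HCN4F-Sham replicate 3, against 9.11 to 10.8. Ldhb was at 1245 CPM in HCN4F-Sham replicate 4, against 1369 to 1393. Gyg was at 112.6 CPM in WT-Sham replicate 1, against 125.9 to 127.1. Slc16a1 was at 104.9 CPM in HCN4F-Sham replicate 2, against 171.7 to 178.3.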

How the results depend on the processing

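The 12 log2 fold changes that passed kept their direction under all 22 alternatives each, and 213 of 264 values also stayed past the threshold while 51 did not. Eno3, Ldhb, Gyg, Mpc2, Pfkfb1, Pfkp and Pgam1 passed in HCN4F hearts under every alternative. For TAC in WT hearts, 2 genes passed, against 4 with DESeq2 on all groups and 1 with the replicate block. On the WT libraries alone, 11 passed with DESeq2 and 9 with edgeR. In this order, these fits called 9.7%, 1.47%, 15.4% and 13.6% of all genes with an adjusted p. With 1 library other than WT-TAC left out, 0 to 4 passed, in fits that called 1.05% to 6.64% of all genes. Of these fits, 0 passed without WT-Sham replicate 1 (1.07% of all genes) or 4 (1.05%). For genotype in Sham hearts, 1 gene passed, against 2 with DESeq2 on all groups (2.52% of all genes). On the Sham libraries alone, 4 passed with DESeq2 (2.66%) and 2 with edgeR (0.736%). With library totals in place of TMM (0.425%) and with the replicate block (0.268%), 0 passed. Without 1 library other than WT-TAC, 0 to 2 passed, in fits that called 0.125% to 3.72% of all genes. For genotype in TAC hearts, 0 passed by edgeR, against 1 with DESeq2 on all groups (1.44% of all genes). Without 1 library other than WT-TAC, 0 to 1 passed, in fits that called 0.072% to 2.97% of all genes. The fit with 1 was that without HCN4F-TAC replicate 3, which called 2.97%. For the interaction, 0 passed by edgeR against 1 with DESeq2 on all groups (0.283% of all genes). The cause of these differences between fits was not tested. Deviations from the group mean correlated at -0.12 to 0.159 between same-numbered libraries and at -0.239 to 0.201 between differently numbered ones. A pairing by number was thus not seen, but such correlations cannot exclude one. With the replicate block in the edgeR fit, the adjusted p became 0.0651 for Eno3 in WT and 0.0649 for Pkm in Sham hearts. In HCN4F hearts it became 0.0912 for Slc2a1 and 0.0731 for Pdk2. Depth limits Aldoc, which lay near the level of 3 counts, and WT-TAC rests on 2 libraries.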
